A study of Mus musculus with 4 samples.

Results

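The spots described here carry transcripts of the oviduct and of ciliated epithelium on sections of mouse ovary. They were chosen by a score, the summed UMIs (unique molecular identifiers, 1 per captured transcript) of Ovgp1, Foxj1, Ccdc153, Tmem212, Dynlrb2, Cfap126 and Pax8 per 10,000 UMIs of a spot. Of 4191 spots, the 4134 with at least 1000 UMIs were scored, and the top 2.5%, 103 spots, are called the chosen spots; the remaining 4031 are called the other spots. The sections came from aged (15 to 16 months) and young (3 to 4 months) outbred CD-1 females, 4 animals per age with 1 section each. Each of 4 Visium capture areas held 1 aged and 1 young section, and a section is named by its age and the number of its area. A Visium spot is a small region that can hold several cells, so that fewer cells of a type and less RNA per cell cannot be told apart.

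The oviduct carries the egg from the ovary to the uterus and lies against the ovary, so that a cut can pass through it or through tubules beside the ovary. Its lining is a single layer of multiciliated cells, whose beating cilia move the egg and the fluid, and of secretory cells, which release proteins into the lumen. Ovgp1 encodes oviductin, the main glycoprotein that oviduct secretory cells release. Foxj1 is the transcription factor that switches on the genes of motile cilia, and Ccdc153, Tmem212, Dynlrb2 and Cfap126 are expressed in ciliated cells, Dynlrb2 as a light chain of dynein motors and Cfap126 in the placing of basal bodies. Pax8 is a transcription factor of epithelia that derive from the Müllerian and mesonephric ducts.

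The sections split by the sides that the labels give, and 1 capture area went against the others. Summed over 8 oocyte genes, area 3 had 433 CPM (UMIs of a gene or list per 1000000 UMIs of the spots summed) in its aged section and 31.1 CPM in its young section. The other areas had 29.8 to 36.0 CPM in aged sections and 161 to 497 CPM in young sections. If the image of area 3 was turned against its label, aged 3 and young 3 would be exchanged, so the tests by age are also given without that area, and patches and makeup are given by section. Total UMIs per section were 2777948 to 9506517 in aged sections and 11341189, 21619232, 9702600 and 17274020 in the young sections 1 to 4.

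The score genes map, in mm10 with GENCODE M21, to chr3:105973711-105987423 (Ovgp1, plus strand), chr11:116330704-116335399 (Foxj1, minus strand), chr9:44240676-44247306 (Ccdc153, plus strand), chr3:27866066-27896368 (Tmem212, minus strand), chr8:116504974-116515915 (Dynlrb2, plus strand), chr1:171113918-171126967 (Cfap126, plus strand) and chr2:24420560-24475599 (Pax8, minus strand). All are protein-coding genes, and the counts are of whole genes. Their values chose the spots and are therefore given as a description. Ovgp1 was detected in 80 of 103 chosen spots (77.7%) and in 364 of 4031 other spots (9.03%). Foxj1 was detected in 54 chosen spots (52.4%) and in 43 other spots (1.07%). Ccdc153, Tmem212, Dynlrb2 and Cfap126 were each detected in 53.4% to 61.2% of chosen spots and in 3.35% to 4.76% of other spots. Pax8 was the least often seen, in 33 chosen spots (32.0%) and 40 other spots (0.992%).

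Promoters of cilia genes are shown because the genes of the ciliated list, described further on, moved together in the chosen spots. RFX transcription factors act with Foxj1 on many cilia genes and bind a motif whose half-site is GTTGCC. In RefSeq promoter windows (GRCm38.p6, 250 bases before to 50 after the start), searched on both strands, GTTGCC was found in 23 of the 38 ciliated-list genes with a window (60.5%) and in 3821 of all 27025 genes (14.1%). It was found in 1 of 13 genes of the oviduct secretory list, in 2 of 6 score genes, in 3 of 11 of the 15 genes with the highest fold change in chosen spots (27.3%) and in 0 of 10 genes of the epithelium list. The forkhead core TGTTTAC was found in 5 of 38 ciliated-list genes (13.2%) and in 4.05% of all genes. A match is a run of letters in these windows and not a bound site. 4 windows are printed 5′ to 3′ on the strand of the gene, with GTTGCC in capitals.
Fam183b (chr11:58801911-58802210, minus strand), a cilia gene with 2 matches, 67 and 16 bases before the start: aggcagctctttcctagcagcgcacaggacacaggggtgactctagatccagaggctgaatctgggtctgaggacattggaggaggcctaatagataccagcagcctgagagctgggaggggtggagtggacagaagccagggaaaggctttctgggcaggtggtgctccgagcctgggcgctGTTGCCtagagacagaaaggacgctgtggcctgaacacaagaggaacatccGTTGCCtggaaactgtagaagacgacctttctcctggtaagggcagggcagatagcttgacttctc
Sntn (chr14:13670626-13670925, plus strand), which encodes sentan of the ciliary tip, with 1 match 66 bases before the start: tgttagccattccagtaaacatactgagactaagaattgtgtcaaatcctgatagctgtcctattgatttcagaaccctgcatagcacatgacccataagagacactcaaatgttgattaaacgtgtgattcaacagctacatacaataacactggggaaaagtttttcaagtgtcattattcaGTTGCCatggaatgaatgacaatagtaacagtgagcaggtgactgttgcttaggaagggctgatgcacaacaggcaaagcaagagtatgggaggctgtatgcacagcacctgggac
Ccdc153 (chr9:44240427-44240726, plus strand), a score gene with 1 match 152 bases before the start: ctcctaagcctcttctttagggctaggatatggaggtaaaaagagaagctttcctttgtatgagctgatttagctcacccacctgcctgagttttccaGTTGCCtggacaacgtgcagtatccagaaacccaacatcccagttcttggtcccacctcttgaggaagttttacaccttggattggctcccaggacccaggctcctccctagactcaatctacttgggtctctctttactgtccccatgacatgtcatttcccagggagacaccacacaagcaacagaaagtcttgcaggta
Ovgp1 (chr3:105973552-105973851, plus strand), the secretory score gene, with no match: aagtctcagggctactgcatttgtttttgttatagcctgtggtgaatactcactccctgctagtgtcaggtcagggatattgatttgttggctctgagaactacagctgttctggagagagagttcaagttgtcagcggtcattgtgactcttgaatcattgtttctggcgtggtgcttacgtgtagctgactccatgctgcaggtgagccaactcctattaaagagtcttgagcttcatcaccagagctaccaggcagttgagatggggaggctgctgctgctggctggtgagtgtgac
The cilia gene windows were picked to show the motif and that of Ovgp1 for its place in the score, so these 4 windows are examples and not a comparison.

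The chosen spots were spread unevenly over the sections. In aged sections 1 to 4 they numbered 0 of 299, 6 of 634, 27 of 249 and 9 of 396 scored spots, and in young sections 1 to 4 they numbered 0 of 530, 30 of 730, 30 of 535 and 1 of 761. The shares were thus 0.946%, 10.8% and 2.27% in aged 2, 3 and 4 and 4.11%, 5.61% and 0.131% in young 2, 3 and 4. Aged 1 and young 1 had none, which allows shares of up to 1.23% and 0.694% (upper limits of exact 95% binomial intervals, which cover counting error only). Aged sections averaged 3.52% ± 4.97 and young sections 2.46% ± 2.83 (SD, n = 4 each), a difference of 1.05 percentage points that was within the spread between animals (exact two-sided permutation p = 0.8; the smallest p this design allows is 0.0286). Without aged 3 the difference was −1.39 points, and without capture area 3 it was −0.341 points.

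**Figure D1:**
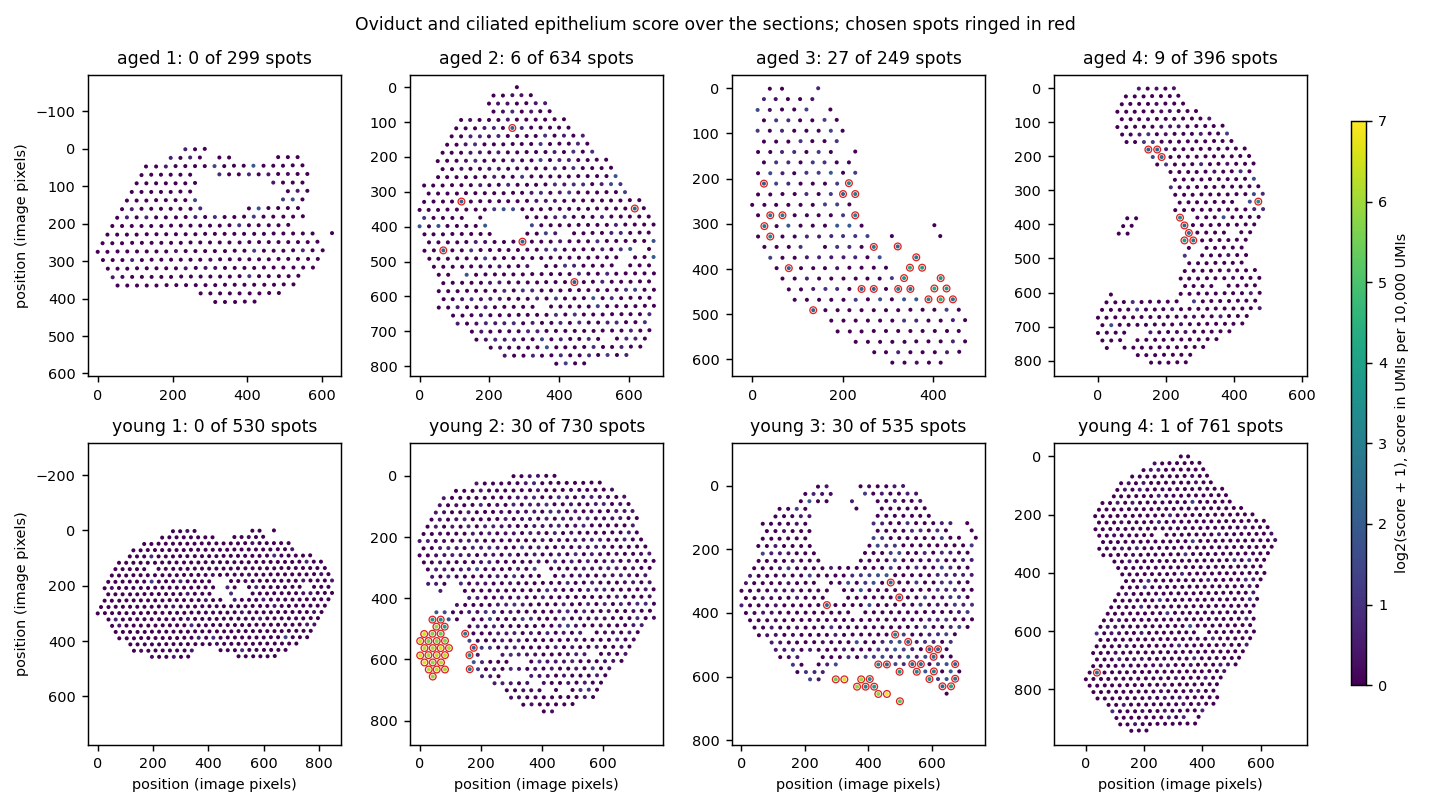
Score of every scored spot at its position in the image (pixels from the first spot of the section; aged sections in the upper row, young sections in the lower row), coloured by log2(score + 1); the 103 chosen spots are ringed. The 26 joined spots of young 2 form an island at the side of the ovary, whereas the 6 chosen spots of aged 2 lie singly.

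Chosen spots lay beside each other, although position did not enter the rule. Of the 103, 79 (76.7%) touched another chosen spot, against 177 of 4031 other spots (4.39%), and 50 lay in patches of at least 5 joined spots. Young 2 held a patch of 26 spots set apart at the side of the ovary, young 3 a patch of 7, aged 3 a pair of patches of 6 spots each, and aged 4 a patch of 5. Spots with fewer than 6 neighbouring tissue spots, which border an edge or a gap of the tissue, were 16.7%, 63.0% and 66.7% of the chosen spots in aged 2, 3 and 4 and 73.3% and 66.7% in young 2 and 3. Over these 5 sections, the ones with at least 5 chosen spots, the share averaged 57.3% ± 23.0 in chosen spots and 24.8% ± 4.72 in other spots. It was higher in chosen spots in 4 of 5 sections, with aged 2 as the exception (exact two-sided sign-flip permutation p = 0.125; the smallest p that 5 sections allow is 0.0625). With 5 sections the call cannot be reached at any size of difference.

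The signal of the score genes was higher within 3 spot spacings of the patches than beyond 10 in young 2 and young 3. It followed no such order in aged 3 and aged 4. These genes chose the spots, so the values are a description. In young 2 the 5 cilia genes of the score had 194 CPM in the 3 other spots next to a patch, 38.0 CPM at 2 to 3 spot spacings, 26.9 CPM at 4 to 6 and 14.9 CPM beyond 10. Ovgp1 in young 2 had 55.6 CPM next to a patch, 3.94 CPM at 4 to 6 spacings, 4.66 CPM at 7 to 10 and 3.80 CPM beyond 10. In young 3 Ovgp1 had 48.5 CPM at 2 to 3 spacings and 12.4 CPM beyond 10. The cilia genes of young 3 had 76.2 CPM at 2 to 3 spacings, 5.27 CPM at 7 to 10 and 8.23 CPM beyond 10. In aged 3 the cilia genes had 51.2 CPM (3 UMIs) next to a patch and 12.1 to 23.1 CPM farther away, and Ovgp1 was highest beyond 10 spacings, at 25.3 CPM. In aged 4 the 5 cilia genes had 0 UMIs in the 6 spots next to a patch, 8.14 CPM at 7 to 10 spacings and 3.79 CPM beyond 10. Levels away from the patches were thus above 0 in all 4 sections, and free RNA on the slide was not measured apart.

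How strongly a spot carried the score differed widely between the sections. The median score of chosen spots was 3.92, 6.25 and 4.65 UMIs per 10,000 in aged 2, 3 and 4 and 60.5 and 7.38 in young 2 and 3, and the highest spot of each had 4.60, 22.6, 13.7, 102 and 137. The lowest chosen spot had 3.06 and the highest spot left out had 3.05. The low end rested on few transcripts. In all, 29 chosen spots had a single score gene, 14 of them had a single UMI at a median depth of 2376 UMIs, and 49 spots had at least 5 of the 7 genes. Of the other spots, 3105 had a score of 0. The chosen spots had the lower median depth in each of these 5 sections. Their median UMIs per spot were 2834, 5663 and 15122 in aged 2, 3 and 4 and 23939 and 7859 in young 2 and 3, against 13463, 9235, 15905, 28563 and 15470 in the other spots of the same sections, lower in 5 of 5. The score divides by the UMIs of a spot, so a shallow spot can be chosen on a single UMI. The depths are therefore given as a description.

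**Figure D2:**
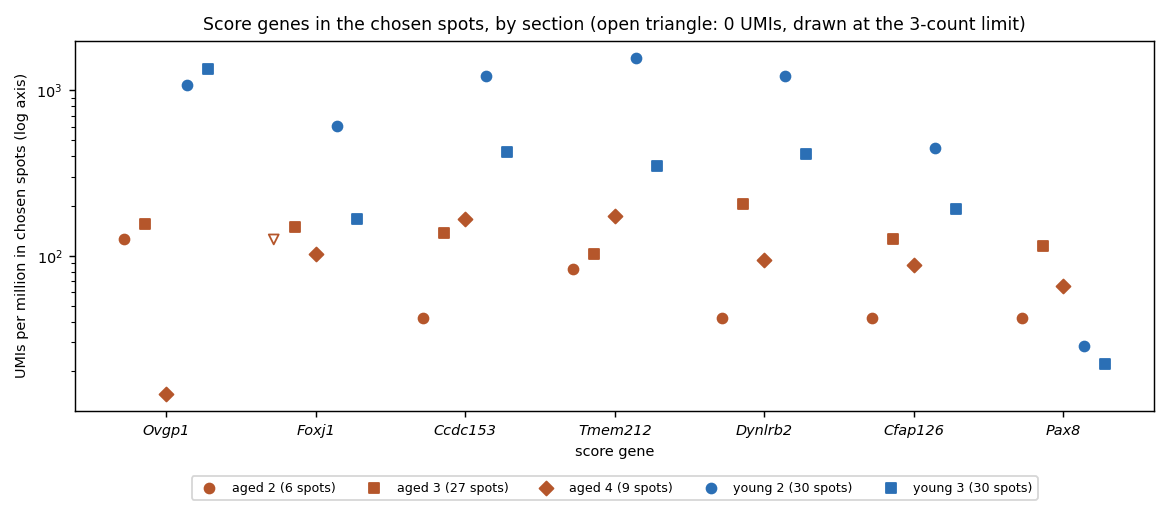
CPM of the 7 score genes in the chosen spots (log axis) for aged 2, 3 and 4 and young 2 and 3; an open triangle marks 0 UMIs and stands at the limit that a count of 0 allows, 3 counts. Ovgp1 is at 14.6 in aged 4 and at 1356 in young 3, and Pax8 is the score gene whose aged values, 41.8 to 114, all lie above the young ones, 22.1 and 28.4. The 41.8 of aged 2 is 1 UMI in a spot chosen by that UMI, below its 3-count limit of 126.

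The makeup of the score also differed. Ovgp1 had 126, 156 and 14.6 CPM in the chosen spots of aged 2, 3 and 4 and 1072 and 1356 CPM in those of young 2 and 3. Foxj1 had 0, 150 and 102 CPM in the aged and 608 and 166 CPM in the young sections. The aged and young values did not overlap for Ovgp1 or for any of the 5 cilia genes, all lower in aged sections. For Foxj1, aged 3 lay close to young 3. Tmem212 had 83.7, 102 and 175 CPM in the aged and 1580 and 350 CPM in the young sections. Pax8 went the other way, at 41.8 (1 UMI), 114 and 65.6 CPM against 28.4 and 22.1 CPM. The score genes chose the spots, so these values are a description. Values did not overlap for 18.3% of the 3828 genes tested by age in chosen spots, which leave out the score genes. Of the UMIs of Ovgp1 and the 5 cilia genes, Ovgp1 took 17.8% in aged 3 (exact 95% interval 12.0 to 25.0) and 2.27% in aged 4 (0.276 to 7.97), against 17.4% in young 2 (16.3 to 18.5) and 46.8% in young 3 (43.2 to 50.3). Pax8 took 13.7% (8.43 to 20.5) and 9.47% (4.42 to 17.2) of the UMIs of Pax8 and the cilia genes in aged 3 and aged 4, against 0.555% (0.352 to 0.831) in young 2 and 1.41% (0.520 to 3.05) in young 3. The intervals cover counting error of single sections, and the differences were not tested over animals. Ovgp1 in the other spots was 15.3 CPM in aged 3 and 15.9 CPM in young 3 and 1.29 to 4.42 CPM in the other 6 sections, so that both sections of capture area 3 stood above the rest.

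By spot, 55 chosen spots held both Ovgp1 and cilia genes, 25 held Ovgp1 without cilia genes, 22 held cilia genes without Ovgp1, and 1 held Pax8 alone. All 30 spots of young 2 held both kinds. In young 3, 17 of 30 held Ovgp1 without the 5 cilia genes. These 17 had 146 CPM over the 45 genes of the ciliated list, which the rule did not use, against 5183 CPM in the 12 spots of young 3 with both kinds. They also had 9124 CPM over 9 plasma cell genes and 25107 CPM over 7 theca and interstitial genes, against 2727 and 14683 CPM in those 12. The other spots of young 3 had 518 and 29884 CPM over these lists. Over the secretory, epithelium and surface epithelium lists the 17 had 1459, 635 and 712 CPM, against 477, 289 and 325 CPM in the other spots of young 3. Aged 4 had the opposite makeup, with cilia genes and no Ovgp1 in 7 of its 9 spots. The 6 spots of aged 2 went against the name of oviduct or ciliated epithelium. They had 1 UMI over the 45 genes of the ciliated list (41.8 CPM, against 104 CPM in the other spots of aged 2), and Epcam, Krt18 and Wt1 were at 0. The 6 spots of aged 3 with Ovgp1 and no cilia genes went against it as well. They had 97.4 CPM over the ciliated list, 146 CPM over the secretory list and 146 CPM over the epithelium list (2, 3 and 3 UMIs), against 144, 262 and 227 CPM in the other spots of aged 3.

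**Figure D3:**
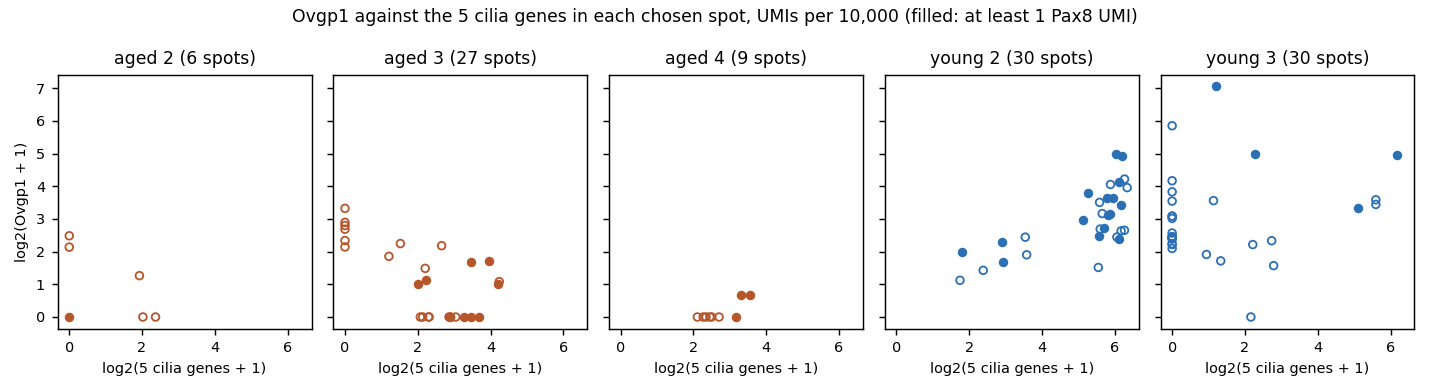
Each point is a chosen spot, with the summed 5 cilia genes on the horizontal and Ovgp1 on the vertical axis (log2 of UMIs per 10,000 plus 1), in aged 2, 3 and 4 and young 2 and 3; filled points hold at least 1 Pax8 UMI. The spots of young 2 gather at high cilia values, 17 spots of young 3 stand at no cilia UMI, and 7 of the 9 spots of aged 4 stand at no Ovgp1 UMI.

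The question of what else these spots express was put to genes outside the score. Counts were summed per section and class, and the chosen and other spots of the 5 sections were compared with an edgeR quasi-likelihood test with section as a factor. Of 13103 genes tested, 1061 (8.1%) were called higher and 564 (4.3%) lower at a Benjamini-Hochberg adjusted p under 0.05, and the median log2 fold change over all genes tested was −0.10. With RLE in place of TMM scaling the calls were 1205 higher and 364 lower, with a median of 0.03, so that 76.8% of the calls were higher, against 65.3% with TMM. Without young 2, the section with the richest spots, 516 and 232 genes were called, and without capture area 3 the fit called 750 and 308.

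Genes of motile cilia had the highest median fold change of the lists. Of 43 tested genes of the ciliated list, 42 were higher in chosen spots and 0 lower. Their median was 5.91 on the log2 scale, against the background of 8.1% called higher. A gene can pass the count filter through the chosen spots alone, and can then hardly come out lower. Dnah5, for example, had 0 to 0.817 CPM in the other spots of the 5 sections. The counts of higher calls by list, here and below, are therefore descriptions. Fam183b, a cilia gene, had 0, 60.1 and 160 CPM in chosen spots of aged 2, 3 and 4 and 1325 and 354 CPM in those of young 2 and 3, against 5.07, 8.06 and 5.28 CPM and 8.22 and 5.30 CPM in the other spots. All sections but aged 2 were higher in chosen spots, and the log2 fold change was 5.36 ± 0.44 (SE; edgeR adjusted p = 1.42e-12). Tppp3, which encodes a protein of ciliary microtubules, had 0, 168 and 262 CPM in chosen spots of the aged and 1018 and 243 CPM in those of the young sections, against 9.87 to 18.4 CPM in other spots (4.21 ± 0.36, edgeR adjusted p = 3.87e-12). Rsph1, a radial spoke protein, and 1110017D15Rik were called at 3.65 ± 0.36 and 6.08 ± 0.45. The ciliated list gene that was not called was Ccno, a gene of the programme that multiplies basal bodies.

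The 15 called genes with the highest fold change included dynein, radial spoke and axoneme genes. Zfp474 led with a log2 fold change of 8.72 ± 0.90 (edgeR adjusted p = 6.66e-10), from 0, 3 and 0 UMIs in chosen spots of aged 2, 3 and 4 and 75 and 10 in young 2 and 3, against 1, 1 and 0 and 1 and 0 UMIs in the other spots. Gm19935 (8.19 ± 0.45), Fam166b (8.18 ± 0.49), Stmnd1 (8.10 ± 0.69), Dnah5 (8.08 ± 0.48) and Sntn (7.99 ± 0.46) followed. Dnah5 encodes a heavy chain of the outer dynein arm, the motor of the ciliary beat. Rsph4a, a radial spoke head protein, stood at 7.67 ± 0.75, and Cfap52 and Cfap44, proteins of the axoneme, at 7.46 ± 0.79 and 7.40 ± 0.56. The others of the 15 were 1700001C02Rik, 1700024G13Rik, Stoml3, Wdr63, C230072F16Rik and 2410004P03Rik, at 7.35 to 7.66. All 15 had 0 UMIs in the chosen spots of aged 2, so that these folds rest on 4 sections or fewer. Genes this rare in the other spots can enter the fit through the chosen spots alone, so this ranking is a description.

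Genes of oviduct secretory and Müllerian epithelium were raised as well. Of 13 tested, 11 were higher and 0 lower, and the median was 2.57 on the log2 scale. Complement C3 had 293, 727 and 262 CPM in chosen spots of aged 2, 3 and 4 and 674 and 980 CPM in those of young 2 and 3, against 171, 71.7 and 81.9 CPM and 27.6 and 186 CPM in the other spots. It was higher in chosen spots in 5 of 5 sections, and the classes did not overlap (2.57 ± 0.33, edgeR adjusted p = 1.10e-07). Lcn2, the iron-siderophore carrier lipocalin 2, had 41.8, 474 and 29.1 CPM in the aged (1, 79 and 4 UMIs) and 434 and 99.5 CPM in the young sections. The other spots had 3.94 to 9.53 CPM (4.79 ± 0.44, adjusted p = 2.06e-11 with edgeR). The value of aged 2 lies below its 3-count limit of 126 CPM. Wt1, a transcription factor of the urogenital ridge, was called at 1.45 ± 0.28. Ltf, the secreted iron-binding lactoferrin, was called at 6.22 ± 0.54 and is described with age below. The pair not called was Slpi and Folr1.

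**Figure D4:**
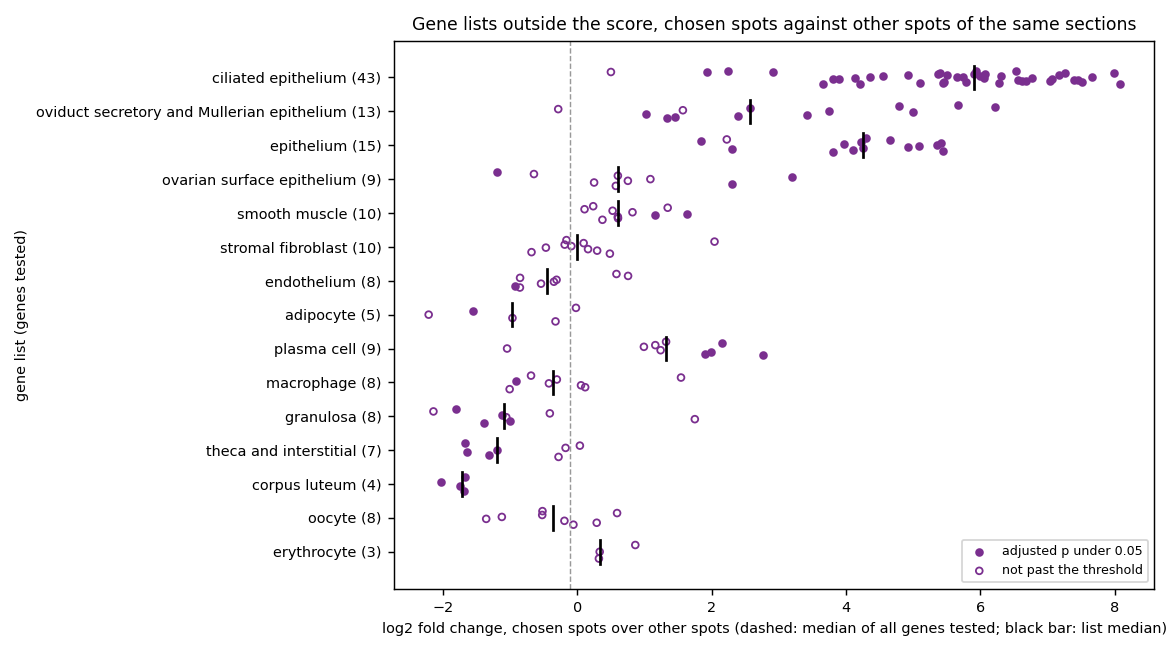
Log2 fold change of each tested gene, chosen over other spots, by gene list (filled, adjusted p under 0.05; open, not past it; bar, list median; dashed line, median of all genes tested at −0.10). The ciliated, epithelium and secretory lists stand at medians of 5.91, 4.26 and 2.57, and the corpus luteum list at −1.72.

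Common epithelial genes moved with them. Of 15 tested, 14 were higher and 0 lower, with a median of 4.26. Epcam, an adhesion protein of epithelia, had 0, 252 and 168 CPM in chosen spots of aged 2, 3 and 4 and 324 and 133 CPM in those of young 2 and 3, against 24.1, 11.1 and 6.05 CPM and 7.74 and 29.2 CPM in the other spots (3.80 ± 0.37, edgeR adjusted p = 1.41e-10). Krt18 and Krt8, keratins of simple epithelia, were called at 4.26 ± 0.36 and 2.31 ± 0.32, and Spint2, a protease inhibitor, at 1.85 ± 0.28. The ovarian surface epithelium list gave a mixed count, with 2 of 9 higher and 1 lower. The higher ones were Krt19, a keratin that many simple epithelia share (2.31 ± 0.35), and Msln, mesothelin (3.19 ± 0.60). Msln was above the other spots in the young sections, at 0 UMIs in the chosen spots of the aged ones, and was not called by DESeq2.

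Other lists give what shares the spots with the epithelium. Smooth muscle genes, which mark the muscle coat of the oviduct and of vessels, had 2 of 10 called higher and a median of 0.60, and 6 of 10 with RLE scaling. Des, the muscle intermediate filament desmin, was called at 1.63 ± 0.28, and Tagln stood at 0.60 ± 0.22 (edgeR adjusted p = 0.0636). Fibroblast genes had 0 of 10 called and a median of 0.00, with Dcn at 0.48 ± 0.28. Endothelial and macrophage genes each had 1 of 8 called lower, adipocyte genes 1 of 5 lower, and with RLE scaling no endothelial or macrophage gene was called. Of oocyte and erythrocyte genes 0 of 8 and 0 of 3 were called. The 1 T and NK cell gene tested was not called.

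Plasma cell genes had 4 of 9 called higher and 0 lower, with a median of 1.32. Igha, the heavy chain of the antibody of mucosal surfaces, had 293, 6.01 and 21.9 CPM in chosen spots of aged 2, 3 and 4 and 550 and 199 CPM in those of young 2 and 3, against 337, 6.90 and 18.3 CPM and 21.3 and 38.1 CPM in the other spots. It was above the other spots mainly in the young sections (1.99 ± 0.46, edgeR adjusted p = 0.00144), and without young 2 or with chosen spots in patches of at least 5 the call was lost. Jchain, which joins the chains of secreted antibodies (2.76 ± 0.49), and Igkc, the kappa light chain (1.90 ± 0.45), were called too. None of these 3 was called by DESeq2. Immunoglobulin genes share reads with near-identical copies, so their single values are uncertain.

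Genes of the steroid-making ovary were lower. Of 4 corpus luteum genes 4 were called lower, with a median of −1.72, as were 4 of 7 theca and interstitial genes (median −1.20) and 4 of 8 granulosa genes (median −1.09), against the background of 4.3% called lower. Lhcgr (−1.68) is in both the corpus luteum and the theca list and counts in each. Cyp11a1, which makes pregnenolone from cholesterol, had 8953, 2756 and 2936 CPM in chosen spots of aged 2, 3 and 4 and 1667 and 6829 CPM in those of young 2 and 3, against 10017, 4648 and 10618 CPM and 8117 and 9253 CPM in the other spots. It was lower in 5 of 5 sections (−1.31 ± 0.30, edgeR adjusted p = 0.00119), and without young 2 it was not called. Akr1c18, the enzyme that breaks down progesterone, was at −1.69 ± 0.35, and Star, which carries cholesterol into mitochondria, at −1.64 ± 0.30. Cyp11a1 was thus present in the chosen spots of all 5 sections, at 1667 CPM or more. Among the 10 called genes with the lowest fold change were Cryba4 (−3.43 ± 0.62), Nrcam, a cell adhesion molecule (−3.28 ± 0.43), Saa2, serum amyloid A2 (−3.27 ± 0.40), Gm47938 (−3.18 ± 0.52) and Kcnj16, a potassium channel (−2.92 ± 0.44). The others were Amdhd1, S100g, Wnt10a, Zfp52 and Ssu2, at −2.50 to −2.22. Wnt10a was not called under 6 of 16 alternatives, among them without young 3 and without capture area 3. DESeq2 did not call Gm47938 and Amdhd1, the top 1% of spots did not give Amdhd1, and the top 5% did not give Cryba4 and Zfp52.

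The surface of the ovary carries an epithelium of its own, and the chosen spots were set against 103 spots with the highest sum of 7 surface epithelium genes. In aged 2, 3 and 4 and young 3, the sections with at least 5 spots of both kinds, 4095 genes were tested outside both scores. Of these 28 (0.684%) were higher and 34 (0.83%) lower in chosen spots. Without young 3 the fit called 9 higher genes, and it called 18 lower genes without aged 2 and 20 without aged 3. Of the 45 genes of the ciliated list 3 passed the count filter, and all 3 were higher. A gene can pass that filter through the chosen spots alone, so this count is a description. Fam183b had 128 UMIs in chosen and 2 in surface epithelium spots (6.09 ± 0.58, edgeR adjusted p = 6.31e-07), and Tppp3 was higher too (4.19 ± 0.50). Ecrg4, a secreted peptide gene, had 255 UMIs against 11 (5.02 ± 0.50), and without young 3 it was not called. Nrtn, the growth factor neurturin, was higher in 4 of 4 sections (3.56 ± 0.74), in aged 2 on 1 UMI in the chosen spots. BC048679, Cdhr4, Capsl, Ccdc17, Cd24a and Fndc7 completed the 10 highest, and Fndc7 had 55 UMIs against 0. Of these, Cd24a was not called without young 3, and the other 5 were not called by DESeq2. Of 6 tested genes of the secretory list 1 was higher, with a median of −0.25 against −0.02 over all genes tested, and none of 6 tested epithelium genes was called. Angptl7 had 15 UMIs in chosen and 437 in surface epithelium spots (−4.40 ± 0.37, edgeR adjusted p = 7.01e-08). Hsd17b2, which inactivates oestradiol and testosterone, had 4 against 97 UMIs (−3.84 ± 0.73), and it was not called without aged 2 or aged 3. Serpina3g, Gbp2b, Pcnx2, Fos, Tmem151a, Pkhd1l1, Lgals2 and Kcnab1 were also lower. Of these, Gbp2b, Tmem151a, Pkhd1l1 and Kcnab1 lost the call without aged 2, and Fos, Tmem151a, Pkhd1l1 and Kcnab1 without aged 3. Fos lost it without young 3 and Kcnab1 without aged 4, and DESeq2 called neither.

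Whole sections by age show the score genes without the choice of spots. Of 14044 genes tested with edgeR, 0 were called higher and 0 lower (0.0% each; 392 had an unadjusted p under 0.05, and DESeq2 called 3 and 3). Ovgp1 had 2.17, 4.42, 23.8 and 1.52 CPM in aged 1 to 4 and 2.12, 44.4, 53.7 and 2.66 CPM in young 1 to 4, and the ages overlapped. Pax8 had 3.75, 0.947, 8.28 and 1.90 CPM in the aged and 0.176, 1.25, 1.24 and 0 CPM in the young sections (log2 fold change 2.29 ± 0.97, unadjusted p = 0.0407, edgeR adjusted p = 1.00). Without capture area 3, Pax8 was at 1.97 ± 1.09 and Ovgp1 at −2.60 ± 1.26 (edgeR adjusted p = 0.67 and 0.615), against −1.90 ± 1.14 for Ovgp1 with it. The Pax8 of aged 1, which had no chosen spot, was 19 UMIs in 11 spots, with 2 UMIs of the cilia genes and none of Ovgp1 in them. The 5 cilia genes were highest in young 2, with Tmem212 at 63.9 CPM there and at most 12.1 CPM in the other 7 sections.

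Within the chosen spots, 3 aged and 2 young sections could be compared. Of 3828 genes tested with edgeR, 0 were higher in aged sections (0.0%) and 2 (0.0522%) lower, Ltf and Wfdc18. With the capture area as a replicate block, or in spots with at least 5000 UMIs, 0 genes were called. Without young 2 the fit called 8 higher and 24 lower genes, and without young 3 it called 36 and 285. Of all genes tested, 699 (18.3%) had aged and young values that did not overlap. Ltf had 0, 2 and 0 UMIs in chosen spots of aged 2, 3 and 4 (0, 12.0 and 0 CPM) and 629 and 102 UMIs in young 2 and 3 (777 and 376 CPM), a log2 fold change of −6.61 ± 0.80 (edgeR adjusted p = 0.0255; 1.5e-14 to 0.89 over the alternatives). Wfdc18, a WAP-domain secretory gene, had 0, 6.01 and 7.29 CPM in the aged and 576 and 181 CPM in the young sections (−6.01 ± 0.83, edgeR adjusted p = 0.0426; 1.3e-12 to 0.89 over the alternatives). Neither was called without aged 2, aged 3 or aged 4. Without young 2, young 3 or capture area 3, 1 young section was left. Calls of those fits hold no spread between young animals. The chosen spots of aged 2 held 23902 UMIs in all, so that 0 UMIs there allow up to 126 CPM (3 counts). The median score of the chosen spots was 3.92 to 6.25 in aged and 7.38 and 60.5 in young sections, and its part in the result was not tested.

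Ltf was also the gene whose pattern over the 4134 scored spots was most like the score (Pearson r = 0.689 on log2 of UMIs per 10,000 plus 1; 0.454 without young 2). Next were 3300002A11Rik (0.679), Gm19935 (0.676), 1700016K19Rik (0.671), Nme9 (0.669), 1700024G13Rik (0.662), 2410004P03Rik (0.659), Sntn (0.656), 1700001C02Rik (0.656) and Pifo (0.656). Spots of a section share a library, so these values are descriptions. Without young 2 the same 10 genes were at 0.303 to 0.454.

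**Figure D5:**
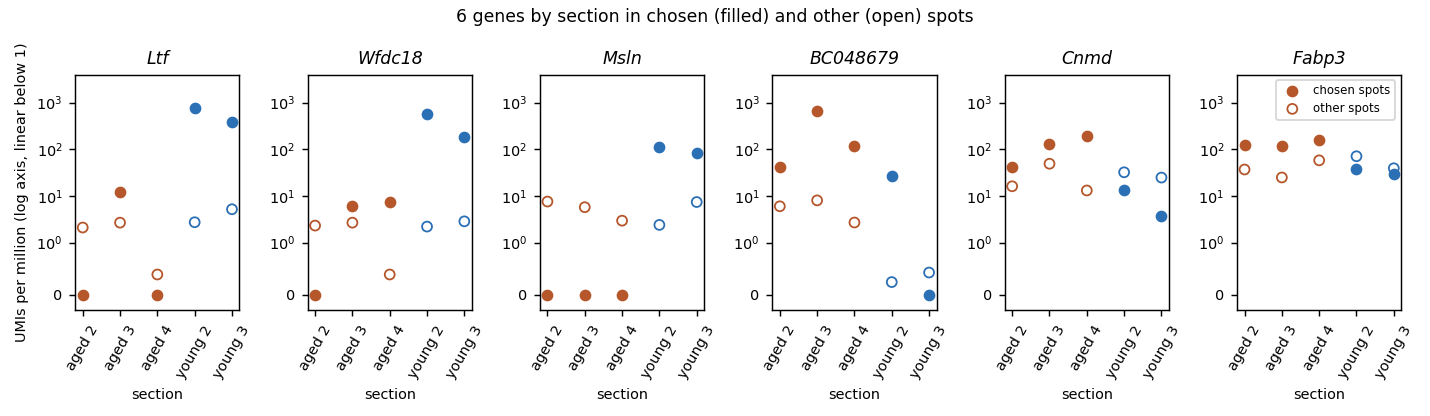
CPM of 6 genes in chosen (filled) and other (open) spots of aged 2, 3 and 4 and young 2 and 3 (log axis, linear below 1). Ltf is at 0 to 12.0 in aged and at 376 and 777 in young chosen spots, while BC048679 is at 41.8 to 655 in aged and at 0 and 27.2 in young ones. The chosen spots of aged 2 held 23902 UMIs in all. There, 1 UMI is 41.8 CPM, and 0 UMIs allow up to 126 CPM (3 counts).

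Other genes on either side had values apart but did not pass the test. Msln had 0, 0 and 0 UMIs in chosen spots of aged 2, 3 and 4 and 91 and 23 in young 2 and 3. By the limit of 3 counts over the group, Msln was at least 11.5-fold lower over the 3 aged sections (edgeR adjusted p = 0.0808). The fold changes without capture area 3 given below rest on 1 young section, young 2. Crip1, Timp4, 1700094D03Rik, Aoc1, Prr29, Dnah5 and 1700024G13Rik completed the 10 on the young side, at adjusted p of 0.0658 to 0.0908 with edgeR. On the aged side Cnmd, chondromodulin, had 41.8, 132 and 189 CPM in aged and 13.6 and 3.69 CPM in young sections. These were 1, 22 and 26 UMIs in aged 2, 3 and 4 and 11 and 1 UMIs in young 2 and 3. Its log2 fold change was 3.58 ± 0.63 (edgeR adjusted p = 0.0808), and 3.22 ± 0.79 without capture area 3. BC048679 had 1, 109 and 16 UMIs in aged 2, 3 and 4 and 22 and 0 UMIs in young 2 and 3. Its log2 fold change was 4.02 ± 1.09 (edgeR adjusted p = 0.21), and 1.62 ± 0.77 without capture area 3. Aif1l, Fabp3, Ptges, Ppp1r9a, Atp1b2, Mme and Prkar2b were also on this side, at 1.61 to 2.36. Of the 45 ciliated-list genes 15 passed the count filter. Of these 0 were called, with a median of −2.87 against −0.02 over all genes tested. Of 7 secretory-list genes 1, Ltf, was called. A gene can pass that filter through the young sections alone. Dnah5, for example, had 0, 6.01 and 14.6 CPM in aged 2, 3 and 4 and 382 and 95.8 CPM in young 2 and 3. The list counts and the median are therefore descriptions.

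Whether age differences in chosen spots departed from those in the other spots of the same sections was tested as an interaction. Of 13103 genes, 6 (0.0458%) had a higher and 97 (0.74%) a lower aged-to-young difference in chosen spots. Without young 2 these were 1 and 15, without young 3 they were 30 and 305, and without aged 2, 3 and 4 they were 5 and 35, 6 and 61, and 1 and 43. The fits without young 2, young 3 or capture area 3 left 1 young section, so their calls hold no spread between young animals. Ltf in the other spots had 2.11, 2.69 and 0.386 CPM in aged 2, 3 and 4 and 2.74 and 5.20 CPM in young 2 and 3, and its interaction was −5.60 ± 0.93 (edgeR adjusted p = 2.50e-06). Cnmd had 16.2, 49.1 and 13.1 CPM in the other spots of the aged and 32.2 and 24.8 CPM in those of the young sections, and its interaction was 3.90 ± 0.63 (edgeR adjusted p = 9.91e-07), which was not called without aged 4. BC048679 in the other spots was also higher in the aged sections, at 6.02, 8.06 and 2.70 CPM against 0.240 and 0.424 CPM, and its interaction was −0.37 ± 0.61 (edgeR adjusted p = 1.00). The patches of at least 5 joined spots give the same genes by section. BC048679 had 924 and 1210 CPM in the pair of aged 3 patches and 213 CPM in the aged 4 patch (46, 61 and 14 UMIs), against 31.0 CPM in the young 2 patch (22 UMIs) and 0 in the young 3 patch. Ltf had 0, 19.8 and 0 CPM in those aged patches, against 867 and 670 CPM in the young ones. Pax8 had 201, 179 and 121 CPM in the aged patches (10, 9 and 8 UMIs), against 29.6 CPM in young 2 (21 UMIs) and 34.4 CPM in young 3 (2 UMIs).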

How the data were processed

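Frozen ovary sections were measured with 10x Genomics Visium. The authors deposited UMI counts of 32285 genes for each spot, not normalized. Per the submitters' processing notes, they come from Space Ranger 1.2.1 and build mm10. The annotation, like the strand setting, was not given in the sources used here. Spot positions come from other deposited files, as array and pixel coordinates. Of 4263 tissue spots, 72 had no column and were not used.

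Spots were given to the aged or young section by the sides that the labels state, at the widest gap. Chosen spots and gene lists were chosen with earlier results of these data known. Counts were summed per section and class and fitted with edgeR 4.0.16 (quasi-likelihood, TMM, filterByExpr, Benjamini-Hochberg over all genes tested; R 4.3.3); DESeq2 1.42.0 was an alternative. The 7 score genes stayed out of the tests on chosen spots. CPM use total counts, fold changes TMM, so their ratios can differ. Sections are single per animal and are the replicates. Section shares were tested by exact permutation (scipy 1.17.1).

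The fits were tested on simulated data with 200 changed genes. All simulated sections shared a common profile and a fixed dispersion, with no differences between sections or classes apart from the changes. Changed genes were drawn above a minimum count. Recovery in the real data can therefore be lower. At a true 8-fold change 81.7% were recovered for chosen against other spots, 87.5% for whole sections by age, 68.1% for chosen spots by age and 16.9% for the interaction. At a true 4-fold change these were 47.8%, 86.1%, 32.8% and 1.52%.

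Genes were named by rule: the score genes, the 15 highest and 10 lowest called genes with at least 20 CPM in the higher class, the 10 smallest p each way by age, the 10 called genes with the largest fold each way against surface epithelium spots, the called genes among the 4 most abundant of each list, and the 10 genes most like the score. A gene that the rule by age names is not reported here. Members of lists outside these, such as Ccno, Slpi and Folr1, and Tagln and Dcn, were chosen after their values were seen. Sections of an area share a slide region; the correlation of their deviations was 0.00358, 0.165, −0.224 and 0.208 in areas 1 to 4.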

Additional observations from a re-analysis of the deposited data

Results flagged for a closer look

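Ovgp1 in whole aged sections was far above the others in 1 section, aged 3 at 23.8 CPM, against 1.52 to 4.42 CPM in aged 1, 2 and 4. Of 16 groups of 4 sections examined in this way, this was the 1 that stood out, and chance gives about 1 in 20.

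The 20 genes named by age were chosen for their difference in chosen spots, which is a part of the test that follows, so their count is a description. For 11 of them, against 0.0458% of all genes tested upward and 0.74% downward, the aged-to-young difference in chosen spots departed from that in the other spots of the same sections in the edgeR interaction test. In chosen spots the departure was downward on the log2 scale for Ltf (−5.60), Wfdc18 (−5.39), Timp4 (−5.12), Aoc1 (−4.80), Prr29 (−3.76), 1700094D03Rik (−3.03) and Crip1 (−2.74). Msln had a fitted value of −12.05, which depends on the prior count, since its aged chosen spots held 0 UMIs. It was upward for Cnmd (3.90), Fabp3 (2.37) and Mme (2.35). Ltf and Crip1 were called under all 9 alternatives of that test. Among these, the fits without young 2, young 3 or capture area 3 left 1 young section. Without young 2, Wfdc18, Timp4, Aoc1, Prr29, 1700094D03Rik, Msln, Fabp3 and Mme were not called, without aged 4 neither Cnmd nor Mme was, and without aged 3 neither Fabp3 nor Mme was. DESeq2 did not call Cnmd, Fabp3, Mme and Timp4, and Fabp3 and Mme were not called without capture area 3.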

How the results depend on the processing

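The share of chosen spots by age changed sign without aged 3, with a range of −1.39 to 2.23 percentage points over single sections left out; it was −0.611 with the top 1% of spots and −0.341 without capture area 3, which was added after seeing the data. With sign flips within capture areas as a replicate block it stayed at 1.05 points (exact permutation p = 0.75). The rim difference was 28.0 to 40.8 points with single sections left out and passed the threshold with the top 5% of spots, at 28.3 points over 6 sections (exact p = 0.0312). For chosen against other spots, single sections left out gave 516 to 1092 higher and 232 to 507 lower genes. The top 5% of spots gave 673 and 307, lower genes numbered 364 with RLE, 191 with DESeq2 and 308 without capture area 3. DESeq2 called 3 and 3 genes in whole sections. By age within chosen spots, single sections left out gave 0 to 36 higher and 0 to 285 lower genes (with 1 young section left, it is assumed to vary like the aged ones). The counts were 22 and 215 with no filter, 1 and 30 with DESeq2, 6 and 38 with at least 2 score genes, 3 and 86 without capture area 3, and 8 lower with the score without Dynlrb2. There were 0 lower with capture area as a replicate block, with at least 5000 UMIs and in patches of at least 5, the last also added after seeing the data. The interaction gave 1 to 30 and 15 to 305 with single sections left out, 0 and 18 with DESeq2, and 15 higher without capture area 3. Against surface epithelium spots these were 9 to 39 and 18 to 43, with 9 and 22 by DESeq2 and 100 higher with no filter. In whole sections, with single sections left out, the log2 differences ranged from −2.69 to 1.09 for Foxj1, −2.62 to 0.22 for Tmem212, −2.87 to 0.14 for Dynlrb2 and −1.28 to 0.65 for Cfap126, each at its highest without young 2. With capture area as a replicate block Foxj1 was at 0.30 and Cfap126 at 0.15. In the interaction BC048679 ranged from −1.24 to 8.90 with single sections left out and was at 0.30 with DESeq2. None of these passed the threshold. The causes were not tested, except that fewer sections enter. Over all named genes and alternatives, 1444 values kept direction and side of the threshold, 98 lost the call, 73 gained it and 9 changed sign. By age, the top 1% of spots could not be fitted, since 1 aged section was left. Depth limits the single-UMI spots of aged 2, 3 and young 3.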
